A study of Mus musculus with 12 samples.

Results

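Small nucleolar RNAs were followed in whole mouse lung, on arrays that measured 22180 genes. The members were all genes whose symbol in the platform annotation begins with Snora or Snord and a number, which gave 73 genes: 26 of the H/ACA class (Snora) and 47 of the C/D class (Snord). The rule reads the name and no measured value, although the set was picked for description with earlier results of these data known. Each was read from a probe paired with that symbol alone, 75 probes in all, and genes that only host a small nucleolar RNA were not counted as members. Another 43 probes pair a small nucleolar RNA with a further symbol and were kept apart.

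The lungs came from 12 female mice aged 10 weeks, 1 array per mouse and 3 mice in each of 4 groups, which the labels call biological replicates. Ventilated Zmpste24-/- mice and ventilated wild type mice were ventilated mechanically for 2.5 h, with 15 cmH2O during inspiration, none at the end of expiration, and 100 breaths a minute of gas with an oxygen fraction of 0.21. Baseline Zmpste24-/- mice and baseline wild type mice were left intact. No other allele or agent is named in the labels, which give neither the strain nor the design of the deleted allele. Zmpste24 encodes the protease that trims the lamin A precursor, a protein of the nuclear lamina, and mice without it are a model of accelerated ageing.

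Small nucleolar RNAs are short RNAs of the nucleolus that steer the chemical modification and cutting of ribosomal RNA. C/D RNAs guide ribose methylation through fibrillarin with Nop56, Nop58 and Snu13, and H/ACA RNAs guide pseudouridylation through dyskerin (Dkc1) with Nhp2, Nop10 and Gar1. A few members of each class take part in the cutting of the precursor and not, or not only, in its modification. In vertebrates most of them lie in introns of host genes and are released as the intron is trimmed, while a small number have promoters of their own. Roles named below are best known from human and yeast RNAs of the same name.

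The array labels held for the deleted gene. Zmpste24 ranged from 5.01 to 5.73 on the log2 scale in ventilated Zmpste24-/- lungs, against 8.50 to 9.28 in ventilated wild type lungs, and from 5.31 to 5.91 in baseline Zmpste24-/- lungs, against 8.50 to 9.02 in baseline wild type lungs. All 15 lung markers measured lay above the array median. So did 15 of 18 markers of other cells or tissues and 13204 of all 22180 genes, so this does not identify the tissue. Array medians spanned 5.35 to 5.42, and arrays correlated at 0.9856 to 0.9924 within groups and at 0.9701 to 0.9877 between groups. Values are normalized log2 probe intensities, so a difference of 1 is a doubling of signal, and levels of different probes are not set against each other. Of the members, 62 had a mean above the array median (23 H/ACA and 39 C/D) and 11 had a mean below it (3 and 8). Differences were tested with limma in 1 fit over all 22180 genes and all 12 arrays, with Benjamini-Hochberg adjustment over the genes, and a member is said to have risen or fallen only where its adjusted p was under 0.05. The p-values measure the spread between these mice.

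**Figure D1:**
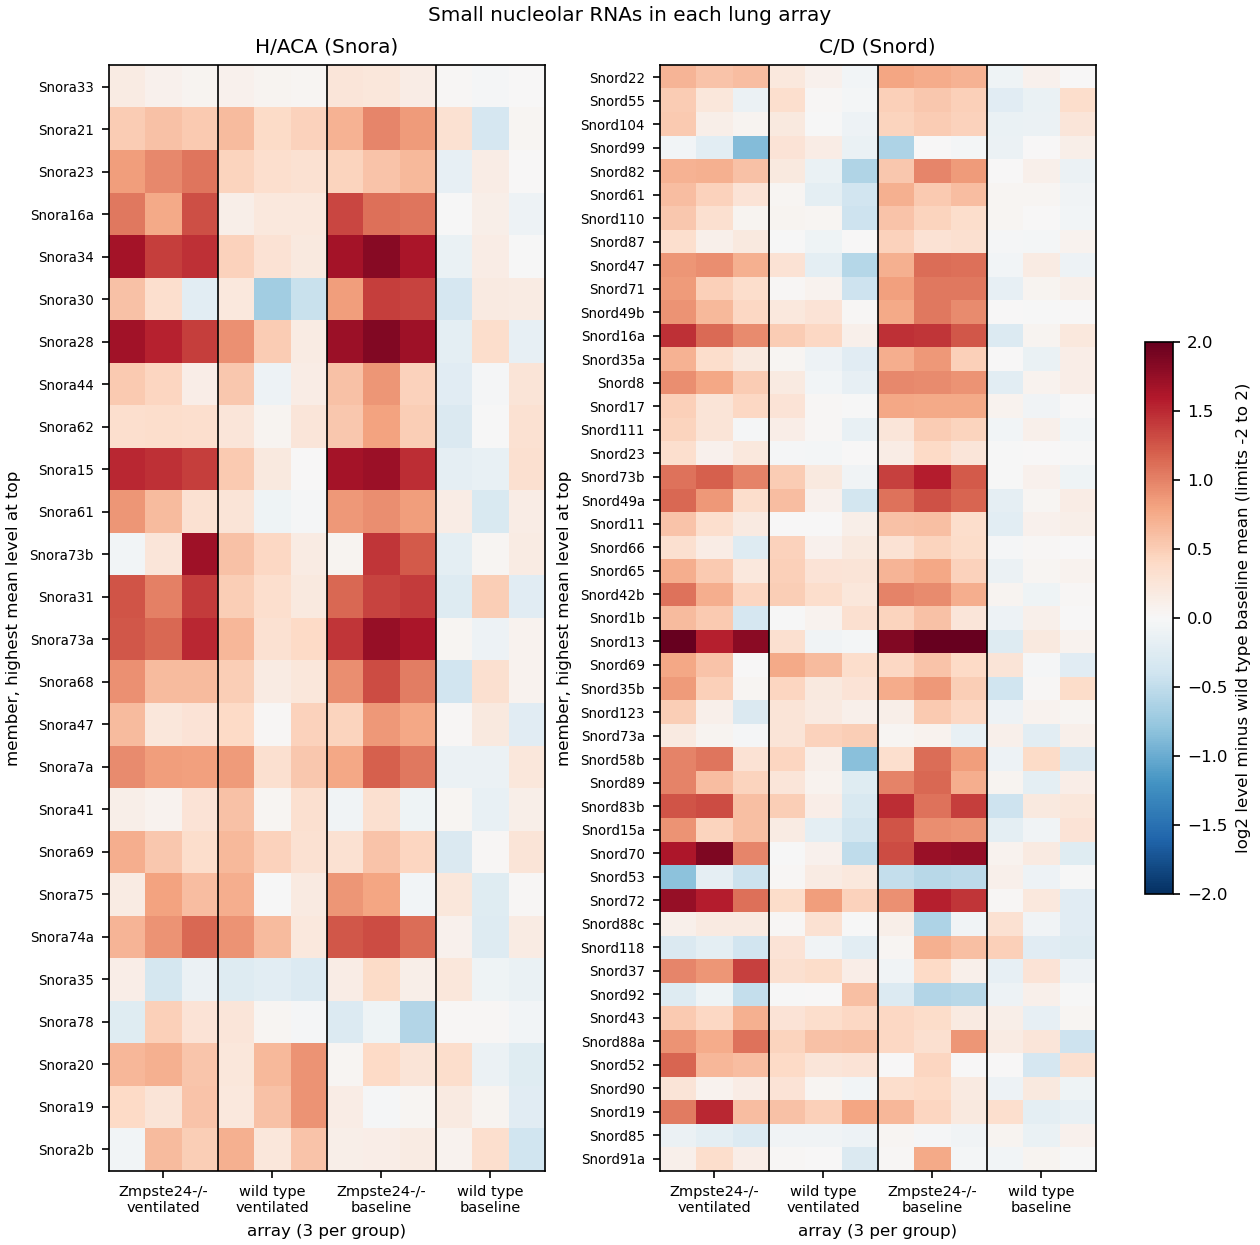
Each row is a small nucleolar RNA, H/ACA at left and C/D at right, and each column an array, with the colour giving its log2 level minus the mean of the 3 baseline wild type arrays (colours end at -2 and 2). The red columns of both Zmpste24-/- groups span most members of both classes, with Snord13, Snora34 and Snora28 among the deepest, while Snord53 is blue there.

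The broadest difference was that between the genotypes at baseline. Of the 73 small nucleolar RNAs, 39 rose in baseline Zmpste24-/- lungs relative to baseline wild type lungs and 1 fell (limma), where 2.2 percent of all genes rose and 4.11 percent fell. The share that rose was 53.4 percent of all members, with 16 of 26 H/ACA RNAs (61.5 percent) and 23 of 47 C/D RNAs (48.9 percent). The median log2 difference was 0.62 over all members, 0.77 over H/ACA RNAs and 0.52 over C/D RNAs, against -0.01 over all genes. The difference was positive in 66 of the 73, and in 52 of them every baseline Zmpste24-/- array lay above every baseline wild type array. Of all 22180 genes, 10472 had a positive difference and 2144 had arrays apart in this way.

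The classes overlapped in their spread, and the difference between them was not tested. Of the 39 that rose, 18 rose at least 2-fold, 10 of them H/ACA and 8 C/D, and the rises ran from 0.35 to 2.39 on the log2 scale. All 39 belonged to the 62 members above the array median, and 0 of the 11 below it passed the test (limma). Among all genes above the array median 3.26 percent rose, and among those below it 0.635 percent, so 0 of 11 does not set these members apart. The member with the largest rise, Snord13, had the largest log2 difference of all 22180 genes in this direction, and Snora34 had the smallest adjusted p of all genes in the comparison.

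The class medians per array show the same separation. The median log2 level of H/ACA RNAs was 8.43, 8.84 and 8.76 in baseline Zmpste24-/- lungs, against 7.34, 7.72 and 7.40 in baseline wild type lungs. That of C/D RNAs was 9.11, 9.06 and 8.85 in baseline Zmpste24-/- lungs, against 8.22, 8.22 and 8.33 in baseline wild type lungs. In both classes the lowest Zmpste24-/- array stood above the highest wild type array.

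**Figure D2:**
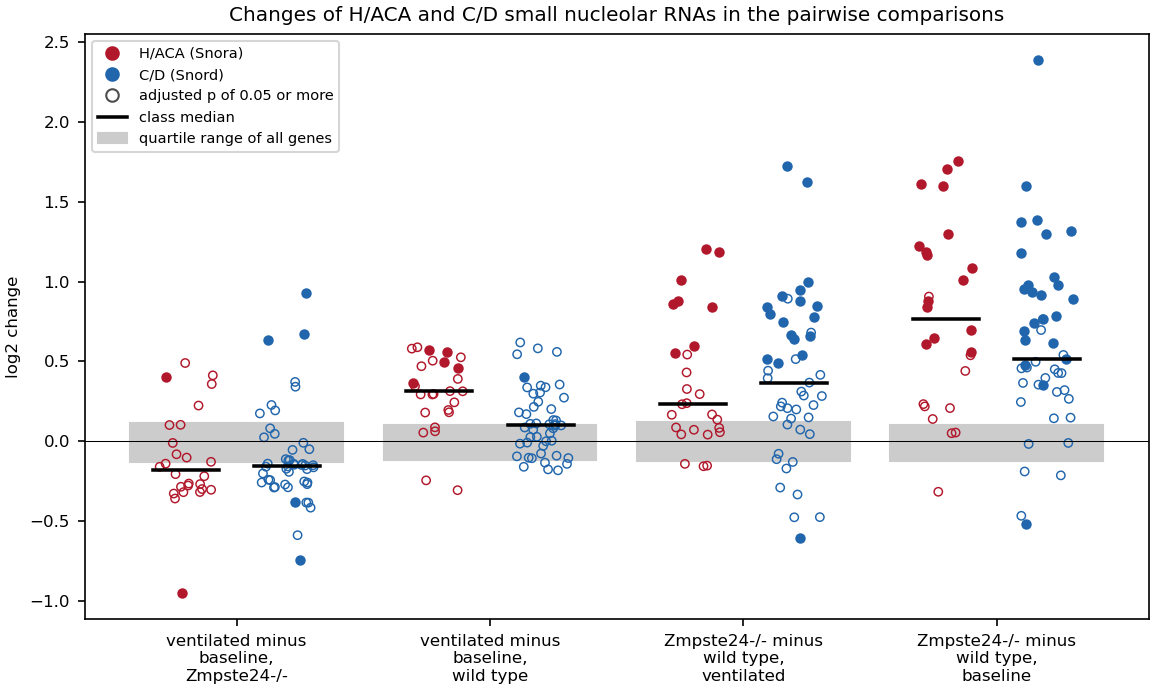
Points are the log2 changes of single members in the 4 pairwise comparisons, H/ACA in red and C/D in blue, filled where the adjusted p was under 0.05, with class medians as black lines and the range between the quartiles of all genes as grey boxes. Both classes lie well above the grey box for Zmpste24-/- minus wild type at baseline (medians 0.77 and 0.52) and nearer to it in the comparisons of ventilated with baseline lungs.

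Snord13 is described first, as the member with the largest rise at baseline. Members that act in the cutting of precursor ribosomal RNA differed in size of change, with Snora73a among the larger rises at baseline and others that did not pass. Snord13, also known as U13, pairs with small-subunit ribosomal RNA and is transcribed from a promoter of its own. It measured 9.25, 10.14 and 9.97 in baseline Zmpste24-/- lungs, against 7.13, 7.60 and 7.46 in baseline wild type lungs. The log2 difference was 2.39 ± 0.20 (SE), a 5.23-fold rise with an adjusted p of 8.62e-05 (limma), and the lowest Zmpste24-/- array lay far above the wild type ones.

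Snora73a, a copy of the H/ACA RNA U17 that is needed for early cuts in the precursor of the small subunit, measured 8.60, 8.91 and 8.79 in baseline Zmpste24-/- lungs, against 7.20, 7.06 and 7.24 in baseline wild type lungs. It rose by 1.60 ± 0.12 on the log2 scale (limma, adjusted p = 2.91e-05) with no overlap of arrays. Its sister copy Snora73b, from the same host, measured 7.77, 9.15 and 8.94 in baseline Zmpste24-/- lungs, against 7.52, 7.75 and 7.87 in baseline wild type lungs. That difference of 0.91 ± 0.39 did not pass (limma, adjusted p = 0.203), since the first Zmpste24-/- array lay within the wild type range and the other two above it. The copies resemble each other closely, so their separate values are uncertain.

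Snord22 (U22), which is also required for maturation of the small-subunit RNA, was tight in every group. It measured 12.23, 12.18 and 12.14 in baseline Zmpste24-/- lungs, against 11.35, 11.52 and 11.44 in baseline wild type lungs, a difference of 0.74 ± 0.09 (limma, adjusted p = 0.00047). Snord118 (U8), which acts in maturation of the large-subunit RNAs, measured 5.92, 6.59 and 6.48 in baseline Zmpste24-/- lungs, against 6.36, 5.66 and 5.63 in baseline wild type lungs. Its groups overlapped and the difference of 0.45 ± 0.20 did not pass (limma, adjusted p = 0.225). The C/D box RNA U3, which is listed under the symbol Rnu3a and so is no member by the naming rule, differed by 1.97 ± 0.25 in the same comparison (limma, adjusted p = 0.000854), with 7.50 to 8.21 in baseline Zmpste24-/- lungs against 5.42 to 6.26 in baseline wild type lungs.

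Among the H/ACA guides, Snora34 gave the smallest adjusted p. It measured 10.59, 10.74 and 10.55 in baseline Zmpste24-/- lungs, against 8.78, 9.07 and 8.90 in baseline wild type lungs, a log2 difference of 1.71 ± 0.11 (limma, adjusted p = 7.36e-06). Snora28 measured 9.78, 9.92 and 9.77 in baseline Zmpste24-/- lungs, against 7.88, 8.43 and 7.90 in baseline wild type lungs, a difference of 1.76 ± 0.18 (limma, adjusted p = 0.000168). Both are pseudouridylation guides of ribosomal RNA, and neither had an overlapping array. Snora15 measured 9.32, 9.37 and 9.13 in baseline Zmpste24-/- lungs, against 7.48, 7.52 and 7.99 in baseline wild type lungs, and rose by 1.61 ± 0.14 (limma, adjusted p = 8.62e-05).

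The 4 other H/ACA guides with the smallest adjusted p also stood apart by group. Snora16a measured 10.84, 10.60 and 10.58 in baseline Zmpste24-/- lungs, against 9.49, 9.61 and 9.41 in baseline wild type lungs (difference 1.17 ± 0.12). Snora31 measured 8.47, 8.67 and 8.73 in baseline Zmpste24-/- lungs, against 7.06, 7.81 and 7.10 in baseline wild type lungs (difference 1.30 ± 0.17). The wild type arrays of Snora31 were more scattered, with the second one high. Snora74a (U19) measured 6.43, 6.50 and 6.31 in baseline Zmpste24-/- lungs, against 5.27, 4.93 and 5.36 in baseline wild type lungs (difference 1.23 ± 0.17). Snora7a measured 7.76, 8.19 and 8.04 in baseline Zmpste24-/- lungs, against 6.87, 6.88 and 7.22 in baseline wild type lungs (difference 1.01 ± 0.14). Adjusted p-values of these 4 ran from 0.000249 for Snora16a to 0.00172 for Snora7a (limma).

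The C/D guides that rose include RNAs directed at ribosomal RNA and at a spliceosomal RNA. Snord73b measured 10.59, 10.79 and 10.45 in baseline Zmpste24-/- lungs, against 9.22, 9.32 and 9.13 in baseline wild type lungs, a difference of 1.38 ± 0.13 (limma, adjusted p = 0.000141). Snord70 measured 8.33, 8.76 and 8.79 in baseline Zmpste24-/- lungs, against 7.10, 7.21 and 6.78 in baseline wild type lungs, a difference of 1.60 ± 0.22 (limma, adjusted p = 0.00123). Both are methylation guides of ribosomal RNA, and in each case all Zmpste24-/- arrays were higher than all wild type arrays. Snord16a, another ribosomal RNA guide, measured 10.98, 10.95 and 10.76 in baseline Zmpste24-/- lungs, against 9.24, 9.58 and 9.74 in baseline wild type lungs (difference 1.37 ± 0.15, adjusted p = 0.00035 by limma).

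Smaller but very even differences were seen in 3 further C/D RNAs. Snord17 measured 10.45 on each of the 3 arrays of baseline Zmpste24-/- lungs, against 9.76, 9.61 and 9.68 in baseline wild type lungs (difference 0.76 ± 0.09). Snord49b measured 10.71, 11.01 and 10.90 in baseline Zmpste24-/- lungs, against 9.97, 9.94 and 9.96 in baseline wild type lungs (difference 0.92 ± 0.12). Snord17 lies in the sorting nexin gene Snx5 and Snord49b in the noncoding gene 2410006H16Rik, and neither host passed (limma, adjusted p = 0.538 and 0.0555). Snord8, a guide of the U6 spliceosomal RNA, measured 10.60, 10.57 and 10.53 in baseline Zmpste24-/- lungs, against 9.42, 9.70 and 9.77 in baseline wild type lungs (difference 0.94 ± 0.12). Their adjusted p-values ran from 0.000721 to 0.00108 (limma).

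Snord53, a C/D guide of large-subunit ribosomal RNA, was the member that went the other way. It measured 7.19, 7.10 and 7.14 in baseline Zmpste24-/- lungs, against 7.76, 7.57 and 7.66 in baseline wild type lungs. The difference of -0.52 ± 0.13 passed (limma, adjusted p = 0.0289) with no overlap of arrays. The call was lost, with adjusted p up to 0.0929, when any baseline Zmpste24-/- array was left out or when the first or the third baseline wild type array was left out.

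**Figure D3:**
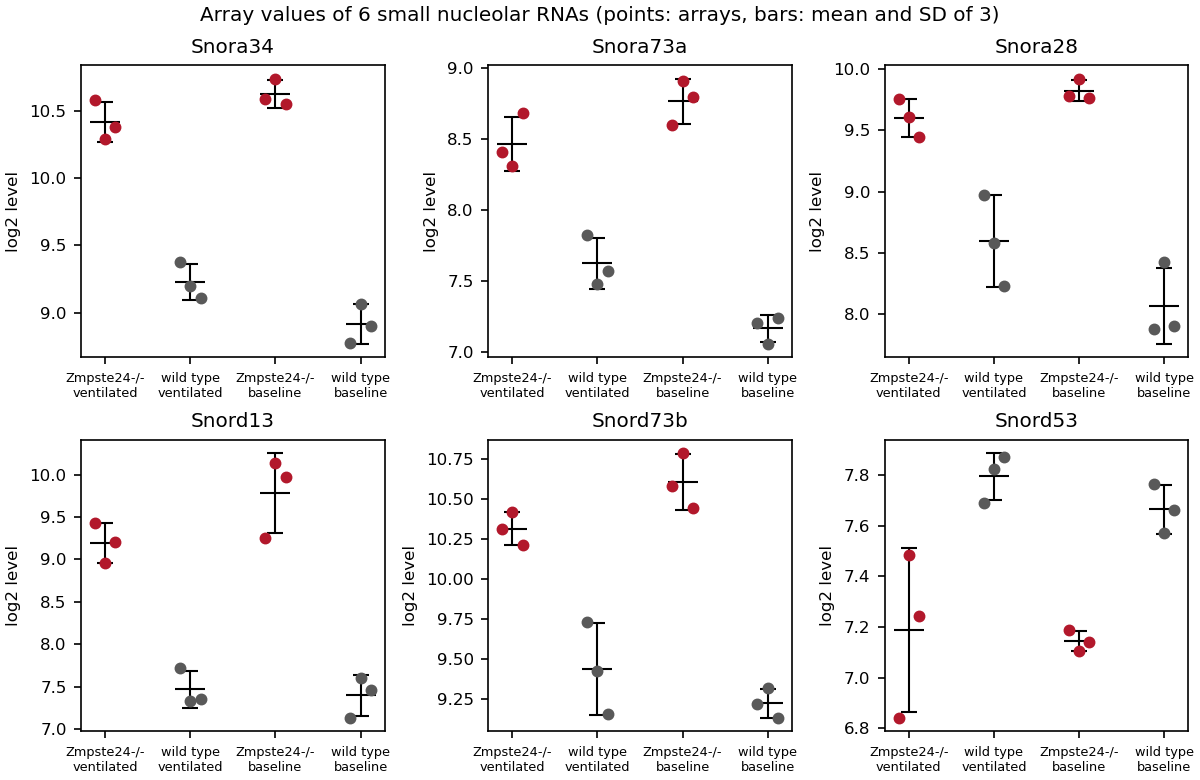
Points are single arrays of 6 small nucleolar RNAs on the log2 scale, with the mean and SD of the 3 arrays of each group as bars. In Snora34, Snora73a, Snora28, Snord13 and Snord73b all Zmpste24-/- arrays (red) lie above all wild type arrays (grey) of the same condition, and in Snord53 they lie below.

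Of the 3 brightest probes of each class, those of Snora21, Snora23, Snord22 and Snord104 rose at baseline and those of Snora33 and Snord55 did not pass. Snora21 rose by 0.84 ± 0.13 and Snora23 by 0.56 ± 0.10 (limma, adjusted p = 0.00307 and 0.0052), and Snord22 is described above. Snora33 measured 13.06, 13.06 and 12.98 in baseline Zmpste24-/- lungs, against 12.84, 12.81 and 12.83 in baseline wild type lungs (difference 0.21 ± 0.07, limma adjusted p = 0.104). A second, dimmer probe of Snora33 gave a difference of 0.94, so the 2 probes of this gene disagree in size. Snord55 measured 11.99, 12.05 and 11.99 in baseline Zmpste24-/- lungs, against 11.28, 11.39 and 11.87 in baseline wild type lungs (difference 0.50 ± 0.17, limma adjusted p = 0.0968). Snord104 measured 11.82, 11.89 and 11.84 in baseline Zmpste24-/- lungs, against 11.24, 11.26 and 11.61 in baseline wild type lungs, and its rise of 0.48 ± 0.13 passed (limma, adjusted p = 0.0473). In Snord55 and Snord104 the third wild type array was the high one.

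Ventilated lungs showed the same direction of genotype difference in fewer members. Between ventilated Zmpste24-/- and ventilated wild type lungs, 25 members rose and 1 fell (limma), where 4.72 percent of all genes rose and 6.08 percent fell. The 25 were 8 of 26 H/ACA RNAs and 17 of 47 C/D RNAs. The median log2 difference was 0.29 over all members, 0.23 over H/ACA RNAs and 0.37 over C/D RNAs, against 0.01 over all genes. Without the first ventilated wild type array the H/ACA median was 0.39. At least 2-fold rises were seen in 5 members.

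The class medians kept apart in ventilated lungs for H/ACA RNAs but overlapped for C/D RNAs. The H/ACA median was 8.39, 8.20 and 8.52 in ventilated Zmpste24-/- lungs, against 7.92, 7.65 and 7.68 in ventilated wild type lungs. The C/D median was 9.20, 8.90 and 8.55 in ventilated Zmpste24-/- lungs, against 8.61, 8.55 and 8.57 in ventilated wild type lungs, where the third Zmpste24-/- array lay at the level of the wild type arrays.

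Snord13 again had the largest rise among the members. It measured 9.43, 8.96 and 9.20 in ventilated Zmpste24-/- lungs, against 7.72, 7.33 and 7.36 in ventilated wild type lungs, a difference of 1.73 ± 0.20 (limma, adjusted p = 0.000275). Snord70 measured 8.64, 8.89 and 8.01 in ventilated Zmpste24-/- lungs, against 7.02, 7.12 and 6.52 in ventilated wild type lungs, a difference of 1.63 ± 0.22 (limma, adjusted p = 0.000542). Snora34 measured 10.58, 10.29 and 10.38 in ventilated Zmpste24-/- lungs, against 9.37, 9.20 and 9.11 in ventilated wild type lungs, a difference of 1.19 ± 0.11 (limma, adjusted p = 4.83e-05). In none of these 3 did an array of one genotype reach the other.

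Of the other named members that rose, Snora15 exceeded Snora34 and the others rose by 1.01 or less. Among H/ACA RNAs, the differences were 1.21 ± 0.14 for Snora15, 1.01 ± 0.18 for Snora28, 0.88 ± 0.17 for Snora31, 0.86 ± 0.12 for Snora16a, 0.84 ± 0.12 for Snora73a, 0.60 ± 0.10 for Snora23 and 0.55 ± 0.15 for Snora61. Of these, Snora61 held the call in 2 of 6 fits that left out 1 array, and lost it without the first or second ventilated Zmpste24-/- array or the second or the third ventilated wild type array (adjusted p up to 0.133). Among C/D RNAs, the differences were 1.00 ± 0.18 for Snord47, 0.88 ± 0.13 for Snord73b, 0.84 ± 0.15 for Snord16a, 0.74 ± 0.12 for Snord8, 0.64 ± 0.11 for Snord61 and 0.54 ± 0.09 for Snord22. Each of these members had every ventilated Zmpste24-/- array above every ventilated wild type array, with limma adjusted p-values between 0.000281 and 0.032.

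Snord53 was lower here too. It measured 6.84, 7.48 and 7.24 in ventilated Zmpste24-/- lungs, against 7.69, 7.82 and 7.87 in ventilated wild type lungs, a difference of -0.61 ± 0.13 (limma, adjusted p = 0.00903). The first Zmpste24-/- array was the lowest, and no array overlapped.

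The genotype comparisons at baseline and under ventilation share no arrays, so their values can be set side by side. Of the 25 members that rose under ventilation, 24 also rose at baseline, which is 96 percent of the 25 and 61.5 percent of the 39. The exception was Snord37. This overlap was not counted over all genes, and both sets of calls use the same variance per gene from the fit over all 12 arrays. Over the 73 members the differences correlated at Pearson r = 0.845 and Spearman rho = 0.809, and over all genes at 0.504 and 0.437. These points share arrays within each comparison and are given as a description. Both differences were positive in 59 members, and 53 members had a positive difference at baseline and one of smaller absolute size under ventilation. Over all 22180 genes these counts were 6958 and 4848.

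**Figure D4:**
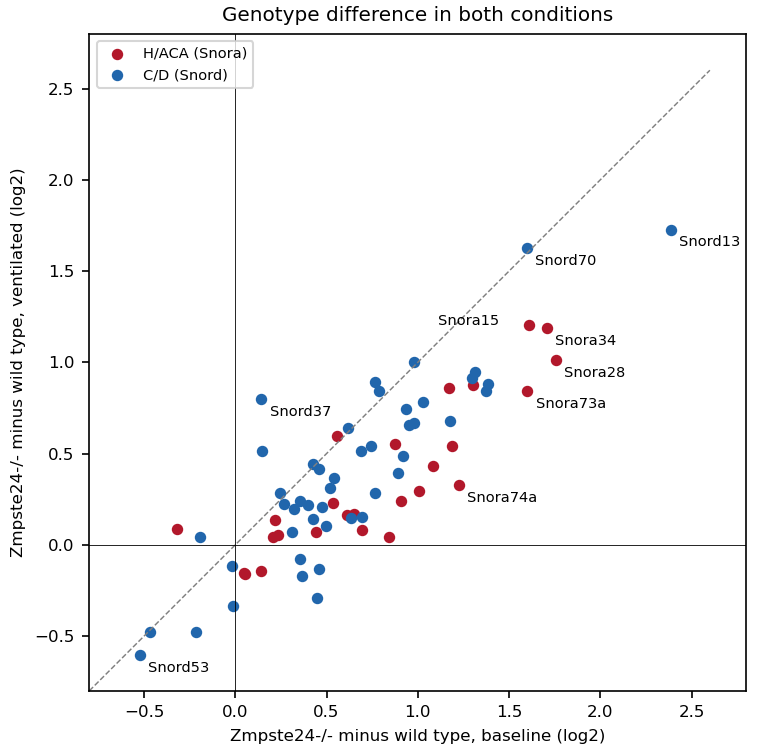
Each point is a small nucleolar RNA, with its log2 difference between Zmpste24-/- and wild type lungs at baseline on the x axis and under ventilation on the y axis, and the dashed line marks equal differences. Most points lie right of 0 and below the line, Snord70 lies on it, and Snord37 lies above it with 0.80 under ventilation.

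Ventilation itself moved few members in Zmpste24-/- lungs. Between ventilated and baseline Zmpste24-/- lungs, 4 of 73 members rose and 3 fell (limma), where 8.89 percent of all genes rose and 7.52 percent fell. The shares of members called were below those of all genes in both directions. The median log2 change was -0.16 over all members, -0.18 over H/ACA RNAs and -0.15 over C/D RNAs, against -0.01 over all genes. The change was negative in 55 of 73 members and in 11487 of all 22180 genes. The C/D median was -0.27 without the first and -0.06 without the third ventilated Zmpste24-/- array.

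Snord37, a C/D guide of large-subunit ribosomal RNA, had the largest rise. It measured 5.99, 5.90 and 6.38 in ventilated Zmpste24-/- lungs, against 4.95, 5.42 and 5.12 in baseline Zmpste24-/- lungs, a change of 0.93 ± 0.15 (limma, adjusted p = 0.00096). In wild type lungs it measured 5.34, 5.39 and 5.15 with ventilation, against 4.85, 5.29 and 4.92 at baseline. It was the only one of the 7 whose call held in every fit that left out 1 array. Its probe lies near the array median.

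The other rises were smaller. Snora23 measured 10.54, 10.66 and 10.77 in ventilated Zmpste24-/- lungs, against 10.14, 10.27 and 10.35 in baseline Zmpste24-/- lungs (change 0.40 ± 0.10, limma adjusted p = 0.0116). Snord52 measured 5.87, 5.38 and 5.32 in ventilated Zmpste24-/- lungs, against 4.71, 5.13 and 4.71 in baseline Zmpste24-/- lungs (change 0.67 ± 0.17, limma adjusted p = 0.0172). These groups did not overlap. Snord19 measured 4.81, 5.28 and 4.38 in ventilated Zmpste24-/- lungs, against 4.43, 4.19 and 3.96 in baseline Zmpste24-/- lungs, and passed with overlapping arrays (change 0.63 ± 0.20, limma adjusted p = 0.047). Snora78 did not pass, with a change of 0.49 ± 0.16 (limma, adjusted p = 0.0565).

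The falls were in an H/ACA guide, a processing RNA and a C/D guide. Snora30 measured 9.62, 9.38 and 8.83 in ventilated Zmpste24-/- lungs, against 9.88, 10.42 and 10.39 in baseline Zmpste24-/- lungs (change -0.95 ± 0.24, limma adjusted p = 0.0162). Snord118 (U8) measured 5.59, 5.69 and 5.49 in ventilated Zmpste24-/- lungs, against 5.92, 6.59 and 6.48 in baseline Zmpste24-/- lungs (change -0.74 ± 0.20, limma adjusted p = 0.0222). Snord17 measured 10.16, 9.94 and 10.09 in ventilated Zmpste24-/- lungs, against 10.45 on all 3 arrays of baseline Zmpste24-/- lungs (change -0.38 ± 0.09, limma adjusted p = 0.0117). In all 3 the highest ventilated array lay below the lowest baseline array. The count of 7 called members was 3 without the third baseline Zmpste24-/- array and 4 without the third ventilated Zmpste24-/- array.

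In wild type lungs the few calls were rises. Between ventilated and baseline wild type lungs, 6 of 73 members rose (limma), where 3.67 percent of all genes rose, and 0 fell, where 3.53 percent of all genes fell. At an unadjusted p under 0.05 (limma) 0 members were lower, against 2367 of all 22180 genes. The 6 that rose were 5 of 26 H/ACA RNAs and 1 of 47 C/D RNAs. The median log2 change was 0.18 over all members, 0.31 over H/ACA RNAs and 0.10 over C/D RNAs, against -0.01 over all genes. The C/D median was 0.04 without the first baseline wild type array, 0.01 without the first and 0.16 without the third ventilated wild type array. The change was positive in 56 of 73, and 21 were higher at an unadjusted p under 0.05 (limma). Of all 22180 genes, 10344 had a positive change and 2163 were higher at that unadjusted threshold.

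Snora7a had the smallest adjusted p. It measured 7.84, 7.31 and 7.53 in ventilated wild type lungs, against 6.87, 6.88 and 7.22 in baseline wild type lungs (change 0.57 ± 0.14, limma adjusted p = 0.0286). Snora73a (U17) measured 7.82, 7.48 and 7.57 in ventilated wild type lungs, against 7.20, 7.06 and 7.24 in baseline wild type lungs (change 0.46 ± 0.12, limma adjusted p = 0.0359). Both rose without overlap, and every ventilated wild type array stayed below the mean of baseline Zmpste24-/- lungs for the same RNA. The other rises were 0.40 ± 0.11 for Snord73a, 0.36 ± 0.10 for Snora23, 0.56 ± 0.15 for Snora19 and 0.50 ± 0.13 for Snora21, with limma adjusted p-values from 0.0361 to 0.0414. Among C/D RNAs the next were Snord43 with 0.35 ± 0.10 and Snord69 with 0.58 ± 0.17, which did not pass (limma, adjusted p = 0.0606 and 0.062).

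These wild type calls were fragile. Without the second baseline, the third baseline or the first ventilated wild type array 3 members were called, and without the second or the third ventilated wild type array 2 were called. With only these 2 groups in the limma fit 0 were called, and 22 had an unadjusted p under 0.05.

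A difference in the response to ventilation between genotypes passed in 0 of 73 members (limma interaction, smallest adjusted p = 0.0793 for Snora73a), where 0.316 percent of all genes passed, 0.266 percent upwards and 0.0496 percent downwards. At an unadjusted p under 0.05 there were 20, of which 19 were negative and 1 positive. Of all 22180 genes there were 2598, of which 1153 were negative and 1445 positive. The interaction, as the Zmpste24-/- change minus the wild type change, had a median of -0.30 over all members, -0.42 over H/ACA RNAs and -0.24 over C/D RNAs, against 0.01 over all genes. It was negative in 61 members, among them Snora73a with -0.76 ± 0.17 and Snora21 with -0.80 ± 0.19, and in 10470 of all 22180 genes. A dependence of the genotype difference on ventilation was thus not shown for any member.

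Across the 4 groups, baseline Zmpste24-/- lungs had the highest mean in 19 of 26 H/ACA RNAs and 33 of 47 C/D RNAs. Baseline wild type lungs had the lowest mean in 23 H/ACA and 27 C/D RNAs. Of the members, 27 were called in 0 of the 4 pairwise limma comparisons, 16 in 1, 28 in 2, 1 in 3 and 1 in 4. The counts of this paragraph were not made over all genes, so they do not set the members apart.

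Most members that rose at baseline lay in a host gene that did not pass. A RefSeq gene encloses 70 of the 73 members, and 64 of these lie in 1 gene only. The 3 without an enclosing gene are Snord13, Snord118 and Snord89. A host was measured for 57 members, 43 different genes in all. Of these hosts, 4 rose and 0 fell at baseline (limma), where 2.2 percent of all genes rose, with a median log2 difference of 0.03, and the 4 are the ribosomal protein genes Rps3a1, Rpl23a, Rps12 and Rpsa. Of the 30 members that rose and had a measured host, 3 had a host that rose and 27 had a host that did not pass. Some hosts lay near the array median. Snhg12, the host of Snora16a, Snora61 and Snora44, averaged 5.29 in baseline Zmpste24-/- lungs and 5.27 in baseline wild type lungs. The part of host level in these counts was not tested. The difference of the small nucleolar RNA exceeded that of its host in 49 of 57 pairs. Over those pairs the differences correlated at Pearson r = 0.152 and Spearman rho = 0.172, as a description of pairs that share arrays.

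**Figure D5:**
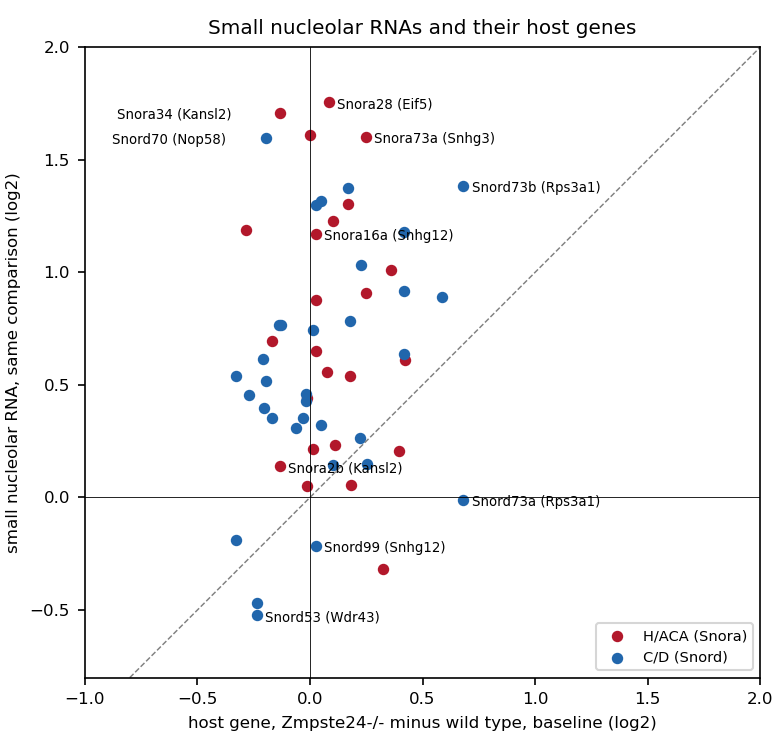
Each point is a small nucleolar RNA with a measured host, placed by the log2 difference between Zmpste24-/- and wild type lungs at baseline of the host (x axis) and of the small nucleolar RNA (y axis), and the dashed line marks equality. Of 57 points 49 lie above the line, and some points of one host, such as Snora34 and Snora2b in Kansl2, are far apart.

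Of the 11 hosts that hold 2 or more members, some held members that differed and others members with close values. Snora34 and Snora2b both lie in Kansl2, a subunit gene of a histone acetyltransferase complex, whose own difference was -0.13 ± 0.11, and they differed between genotypes at baseline by 1.71 ± 0.11 and 0.14 ± 0.19. Snora2b measured 4.18, 4.21 and 4.23 in baseline Zmpste24-/- lungs, against 4.14, 4.40 and 3.67 in baseline wild type lungs, below the array median throughout. Snord73b and Snord73a lie in the ribosomal protein gene Rps3a1, which rose by 0.68 ± 0.09. Snord73b rose by 1.38, while Snord73a measured 8.11, 8.15 and 7.94 in baseline Zmpste24-/- lungs, against 8.18, 7.87 and 8.18 in baseline wild type lungs, a difference of -0.01 ± 0.11.

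The noncoding host Snhg12 holds 4 members. Snora16a, Snora61 and Snora44 rose by 1.17, 0.88 and 0.65, and Snord99 differed by -0.22 ± 0.20 (limma, adjusted p = 0.605). Snord99 measured 11.02, 11.64 and 11.59 in baseline Zmpste24-/- lungs, against 11.51, 11.64 and 11.74 in baseline wild type lungs, so its arrays overlapped. Nop58, which encodes a core protein of C/D particles, holds Snord70 and Snord11, which rose by 1.60 and 0.52. Rpl3 holds Snord83b, which rose by 1.32 ± 0.23, and Snord43, which differed by 0.32 ± 0.10 and did not pass (limma, adjusted p = 0.0874). Close values were seen in Gnl3, with 0.46 ± 0.17 for Snord69 and 0.43 ± 0.20 for Snord19, and in Ncl, with 0.78 ± 0.16 for Snord82 and 0.54 ± 0.25 for Snora75. Of these only Snord82 passed (limma, adjusted p = 0.0129). Snord69, Snord19 and Snora75 did not (limma, adjusted p = 0.142, 0.248 and 0.233). Wdr43 holds Snord53, which fell, and Snord92, which differed by -0.47 ± 0.16 without passing (limma, adjusted p = 0.0952).

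By kind of host, 14 of 20 members in noncoding genes rose at baseline, 11 of 18 in ribosomal protein genes, 12 of 32 in other protein-coding genes, and 2 of the 3 with no enclosing gene (limma). The medians of the log2 difference were 0.81, 0.80, 0.44 and 0.95 in that order. Of the 32 in other protein-coding genes 23 lay above the array median, against 19 of 20 in noncoding genes and 17 of 18 in ribosomal protein genes, and the part of level in these counts was not tested.

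With ventilation many hosts passed the test and few small nucleolar RNAs did. Between ventilated and baseline Zmpste24-/- lungs, 18 of 43 hosts rose and 0 fell (limma), where 8.89 percent of all genes rose, with a median of 0.21. The noncoding host Snhg1 measured 8.54 ± 0.21 in ventilated Zmpste24-/- lungs, against 7.18 ± 0.12 in baseline Zmpste24-/- lungs (mean ± SD, n = 3 each), a rise of 1.36 ± 0.13 (limma, adjusted p = 1.46e-05). Its passenger Snord22 measured 12.12, 12.00 and 12.05 in ventilated Zmpste24-/- lungs, against 12.23, 12.18 and 12.14 in baseline Zmpste24-/- lungs. Eif5, the host of Snora28, rose by 1.01 ± 0.10 with ventilation in Zmpste24-/- lungs (limma, adjusted p = 1.69e-05), and Snora28 measured 9.75, 9.61 and 9.44 in ventilated Zmpste24-/- lungs, against 9.78, 9.92 and 9.77 in baseline Zmpste24-/- lungs. In both examples the host gene rose and its small nucleolar RNA was not called. Of the 4 members that rose in this comparison, all with a measured host, 3 had a host that rose as well: Snora23 in Ipo7 (0.68 ± 0.12), Snord52 in 1110038B12Rik (0.81 ± 0.10) and Snord19 in Gnl3 (1.45 ± 0.13). In wild type lungs 12 of 43 hosts rose and 0 fell with ventilation, where 3.67 percent of all genes rose, and under ventilation 9 rose and 1 fell between Zmpste24-/- and wild type lungs, where 4.72 percent of all genes rose (limma).

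Genes of the machinery that builds and trims small nucleolar RNAs did not pass at baseline, where 2.2 percent of all genes rose and 4.11 percent fell. In lists this short, counts near 0 do not set these genes apart from all genes. Between baseline Zmpste24-/- and baseline wild type lungs, limma called 0 of 3 measured C/D core proteins, 0 of 4 H/ACA core proteins, 0 of 12 assembly factors and 0 of 15 genes of trimming and intron release. Of 37 genes of ribosomal RNA synthesis and early processing 1 rose, the nucleolar protein gene Npm1, by 0.30 ± 0.08 (limma, adjusted p = 0.0493). Of 15 noncoding host genes 1 rose, Snhg17, by 0.73 ± 0.13 (limma, adjusted p = 0.00583).

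With ventilation in Zmpste24-/- lungs, where 8.89 percent of all genes rose and 7.52 percent fell, the lists differed. Rises were most frequent in the C/D core proteins and in ribosomal RNA synthesis (median changes 0.79 and 0.31). Of 15 noncoding host genes 5 rose and 3 fell (limma), with a median change of 0.10. All 3 measured C/D core protein genes rose, Nop58 by 1.41 ± 0.15, Nop56 by 0.79 ± 0.10 and Snu13 by 0.37 ± 0.09 (limma, adjusted p from 4.24e-05 to 0.0128). The fibrillarin gene Fbl, also listed, was not among the genes measured. Nop58 and Nop56 are hosts of members too, and are counted among the 18 hosts that rose. Nop58 averaged 9.17 ± 0.22 in ventilated Zmpste24-/- lungs and 7.76 ± 0.24 in baseline Zmpste24-/- lungs (SD, n = 3 each). Of the H/ACA core protein genes 1 of 4 rose, Gar1 by 0.35 ± 0.11 (limma, adjusted p = 0.0394). Of 37 genes of ribosomal RNA synthesis and early processing, 18 rose and 1 fell, led by Utp4 with 1.18 ± 0.09 and the helicase gene Ddx21 with 0.92 ± 0.10. Assembly factors had 3 of 12 higher, and the trimming list had 2 of 15 higher and 2 lower. The median changes of the H/ACA core, assembly and trimming lists were -0.01, 0.04 and 0.03. In wild type lungs ventilation raised 1 of 3 C/D core protein genes, Nop58 by 0.84 ± 0.15 (limma, adjusted p = 0.00469). Of the 37 genes of ribosomal RNA synthesis 6 rose and 1 fell there, where 3.67 percent of all genes rose and 3.53 percent fell.

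Other short noncoding RNAs and the ribosomal protein genes give a measure of how far the genotype difference reached beyond the members. Of all genes, 2.2 percent rose and 4.11 percent fell between genotypes at baseline. Of 5 Cajal body RNAs, which guide modification of spliceosomal RNAs, 3 rose in baseline Zmpste24-/- lungs (limma), and Scarna6 was the largest with 1.92 ± 0.17 and an adjusted p of 8.62e-05. Scarna6 ranged from 9.53 to 9.92 in baseline Zmpste24-/- lungs, against 7.63 to 7.83 in baseline wild type lungs. Of 6 spliceosomal, Y and related RNAs 4 rose, among them U3, given above, and the Y RNA Rny1 with 1.46 ± 0.20 (limma, adjusted p = 0.00156). Of 472 microRNA genes 3 rose and 13 fell, both shares below those of all genes. Their median difference was -0.05, and 113 of them lay above the array median.

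Of 63 cytosolic ribosomal protein genes 22 rose and 2 fell at baseline, where 2.2 percent of all genes rose and 4.11 percent fell. Their median difference was 0.23. Rps19 averaged 9.54 ± 0.10 in baseline Zmpste24-/- lungs and 8.69 ± 0.09 in baseline wild type lungs (SD, n = 3 each), a rise of 0.86 ± 0.08 (limma, adjusted p = 0.000156). Under ventilation 20 of the 63 genes rose and 1 fell between genotypes, with a median of 0.24, where 4.72 percent of all genes rose and 6.08 percent fell.

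Markers of other cells moved with genotype as well. Of 18 measured markers of other cells or tissues, 1 rose and 5 fell in baseline Zmpste24-/- lungs (limma), where 2.2 percent of all genes rose and 4.11 percent fell. The neutrophil gene S100a8 rose by 1.27 ± 0.26, and the liver transcripts Alb and Apoa1, the B-cell genes Cd79a and Ms4a1 and the T-cell gene Cd3e fell. Under ventilation the 4 neutrophil markers rose and 4 lymphocyte markers fell between genotypes, where 4.72 percent of all genes rose and 6.08 percent fell. The summed level of the 18 markers, as log2 of the sum of linear values, ranged from 12.06 to 12.27 in ventilated Zmpste24-/- lungs, against 11.81 to 13.25 in ventilated wild type lungs, and from 11.46 to 12.24 in baseline Zmpste24-/- lungs, against 12.13 to 12.79 in baseline wild type lungs. Intensities are never 0 on this scale. Their part in the results on small nucleolar RNAs was not tested, and in whole tissue fewer cells of a type and less RNA per cell cannot be told apart. Alb reached 11.52 in the second baseline wild type array, and without that array 37 members were called between genotypes at baseline (limma).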

How the data were processed

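RNA from 12 whole lungs was extracted with Trizol, purified on a column, labelled with a whole-transcript kit and hybridised to one-colour Affymetrix arrays, per the labels' protocols. The deposited values are normalized probe intensities in log2 units, as judged from their range. Per the submitters' processing notes the tools were RMA and limma, without a version. No scan date or slide was used, so batches were not tested. The number of arrays limits the precision.

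The platform annotation gives 1 symbol to 23521 of the 41345 probes, more than 1 to 1814 and none to 16010. Where a gene had several 1-symbol probes, as 1082 genes did, the one with the highest mean was used, for 22180 genes in all. Values were not normalized again. A model with 1 mean per group was fitted by lmFit and moderated by eBayes (limma 3.58.1, R 4.3.3) on 8 residual degrees of freedom. The 5 contrasts were the effect of ventilation in either genotype, the effect of genotype in either condition, and the interaction, which is the Zmpste24-/- change with ventilation minus the wild type change. An exact permutation test of 3 arrays against 3 cannot give a p below 0.1, so single members were not tested that way. The script was tested on simulated data. Plots were made in Python 3.11.15 (matplotlib 3.10.9).

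All 73 members matched a RefSeq gene table (assembly GRCm38.p6), which was used for host genes only. The host is the shortest enclosing gene that is not itself a small RNA. The table gives no strand, so hosts were not restricted to the same strand. Coordinates are left out, since no source used here gives the genome build of the probes, and no sequence of a member was found in the tables used here. Named are, per pairwise contrast, up to 8 passed members per class and direction with the smallest adjusted p, the brightest 3 probes of each class, where fewer than 3 passed those with the smallest p, the hosts of named members, and up to 4 genes of a list. Other members stand in the text as counts, or beside a co-hosted member. The members and lists were chosen with earlier results of these data known. Alternatives were array medians subtracted, genes below the 25th percentile left out, the mean of a gene's probes, the lowest-mean probe (chosen after seeing the data), a variance trend with robust fitting, 2 groups fitted alone, a replicate block, and each array left out. Arrays were not treated as paired in the main fit, as deviations of same-numbered arrays correlated at -0.129 to 0.153 over all genes. That correlation was not taken over the members alone. In some C/D members, Snord55 and Snord104 among them, ventilated arrays ran downward from the first to the third in both genotypes, and in others they did not.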

Additional observations from a re-analysis of the deposited data

Results flagged for a closer look

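Probes that pair a small nucleolar RNA with another symbol were outside the comparisons, and they also carried a signal. In a limma fit over all probes, 10 of these 43 probes were higher and 0 lower in baseline Zmpste24-/- lungs than in baseline wild type lungs, where 1.87 percent of all probes were higher. Their median log2 difference was 0.21. In ventilated lungs 6 were higher and 0 lower between the same genotypes, where 3.2 percent of all probes were higher. Which of the paired symbols gives the signal was not tested.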

How the results depend on the processing

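Under the alternatives other than leaving out an array, 40 to 43 members were called between genotypes at baseline (40 as reported) and 26 to 31 under ventilation (26). For ventilation the counts were 6 to 9 in Zmpste24-/- lungs (7) and 0 to 8 in wild type lungs (6), with 0 when those 2 groups were fitted alone. In that fit 22 members had an unadjusted p under 0.05 and the smallest adjusted p was 0.0543. With the replicate block, 40 members were called between genotypes at baseline, 29 under ventilation, 7 with ventilation in Zmpste24-/- lungs, 4 in wild type lungs and 0 for the interaction. With 1 array left out, the counts were 33 to 41 and 20 to 33 for genotype at baseline and under ventilation, 3 to 9 and 2 to 6 for ventilation in Zmpste24-/- and wild type lungs, and 0 to 1 for the interaction, the 1 arising without the first baseline wild type array. Class medians of the log2 change moved by less than the SD of the class median level between replicate arrays. That SD, one of single-array levels and not of differences between group means, was 0.19 for H/ACA and 0.18 for C/D RNAs. It is more than some of the medians of change themselves. Relative to their size several moved far with 1 array left out: the C/D median ranged from 0.01 to 0.16 for ventilation in wild type lungs and from -0.27 to -0.06 in Zmpste24-/- lungs, and the H/ACA median from 0.16 to 0.39 for genotype under ventilation. No named member changed sign. The filter on low values left 68 members.

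Limits are 3 mice per group and, for nearly all members, a single probe.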
